A study of Rattus norvegicus with 8 samples.

Results

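The helix-loop-helix genes described here are Neurod1, Id1, Id2, Id3, Id4, Hes1 and Hes5, chosen by name, and all 7 were found among 16462 gene symbols (16932 transcripts) of the rat pineal data. Each had 1 transcript. The pineal glands came from Sprague-Dawley rats kept in 14 h of light and 10 h of dark, and were of embryonic day 21 (E21) or postnatal day 5, 20 or 40 (P5, P20, P40). Every age had a mid-night library (zeitgeber time 19) and a mid-day library (zeitgeber time 7). Each library was a pool. The mid-night and mid-day pools held 15 and 13 animals for E21, 19 and 17 for P5, 10 and 13 for P20, and 3 and 3 for P40. Levels are FPKM, a measure of fragments that corrects for transcript length and library depth. Changes are differences of log2(FPKM + 1), which understates the change of a gene near 1 FPKM.

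Basic helix-loop-helix proteins bind DNA as dimers at E-boxes, short motifs with a CA at one end and a TG at the other. Tissue-specific activators such as Neurod1 pair with the widely expressed E proteins, and Neurod1 is known in mouse as a factor of pinealocytes and of retinal photoreceptors. Id proteins have the helix-loop-helix but lack the basic region, so they take up E proteins into dimers that do not bind DNA. Hes1 and Hes5 are repressors that Notch signalling switches on, and they act with corepressors of the Groucho or Tle family.

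Neurod1 held a high level at every age, while Id2, Id3 and Hes1 were lower at P40 than at E21 and Hes5 was listed at 0.207 FPKM or less. Neurod1 averaged 110 ± 6.79 FPKM at P40 and 137 ± 5.06 FPKM at E21 (SD, n = 2 libraries per age). Id2 averaged 12.4 ± 1.81 FPKM at P40 and 55.9 ± 31.1 FPKM at E21, and Id3 28.3 ± 5.10 FPKM at P40 and 72.8 ± 20.6 FPKM at E21. Hes1 averaged 2.21 ± 0.678 FPKM at P40 and 4.46 ± 0.409 FPKM at E21. In bulk RNA, fewer cells of a type and less RNA per cell cannot be told apart. With 1 pooled library for each age and time, each SD is that of the mid-night and the mid-day library of an age, not of replicates. The p-values rest on how the difference of mid-night and mid-day varied between ages, drawn toward the spread of other transcripts (eBayes). They do not measure the spread between replicate pools.

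**Figure D1:**
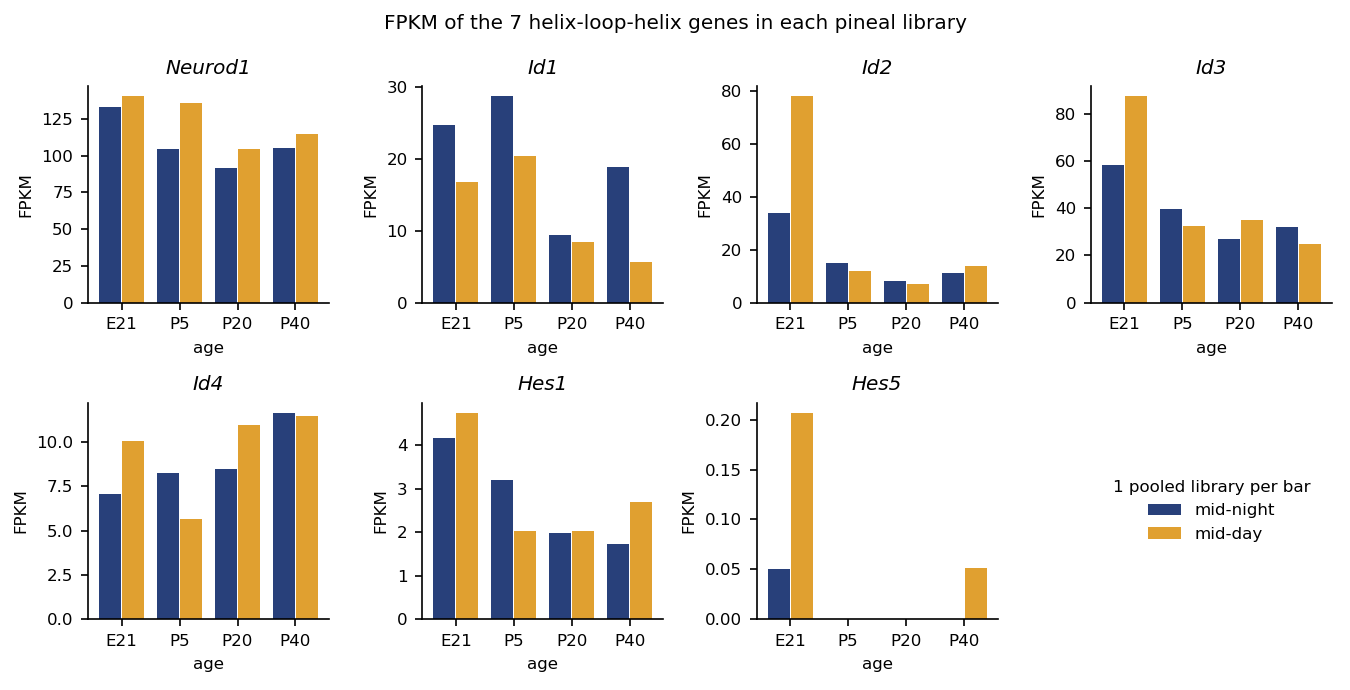
FPKM of each of the 7 genes (vertical axes, each starting at 0, scaled per gene) at the 4 ages (horizontal axes), with a bar for the mid-night library on the left and for the mid-day library on the right. Neurod1 stays between 91.6 and 140.4 FPKM, Id2 and Id3 are highest in the E21 libraries, and Hes5 is listed at 0 in 5 of 8 libraries.

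Between 8598 and 9533 transcripts reached 1 FPKM in a library. The FPKM added by 1 fragment on 1000 bases was inferred from the smallest values of olfactory receptor transcripts, taken as 1 fragment each. It was not checked against read totals. By this estimate it ran from 0.0270 in the deepest library (P40 mid-night) to 0.0640 in the shallowest (P20 mid-day). Of 12 pinealocyte marker genes 10 were tested, and 5 rose and 0 fell for P40 against E21. Among all transcripts tested 16.1% rose and 26.8% fell. The homeobox gene Crx, a regulator of pinealocyte and photoreceptor genes, was at 195 and 106 FPKM in the P40 mid-night and mid-day libraries, against 107 and 116 FPKM at E21. Tph1, the tryptophan hydroxylase of the gland, was at 2525 and 2756 FPKM at P40, against 331 and 370 FPKM at E21.

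Neurod1, on chromosome 3 (chr3:62224643-62227936, rn4), had the highest level of the 7 genes in all 8 libraries. It stood at 133 FPKM at mid-night and 140.4 FPKM at mid-day at E21, 105 and 136 FPKM at P5, 91.6 and 105 FPKM at P20, and 105 and 115 FPKM at P40. The highest library was 1.53 times the lowest. Both P40 libraries were below both E21 libraries, while the P5 libraries overlapped those of each other age. Its change for P40 against E21 was -0.32 (95% interval -0.80 to 0.17; limma, adjusted p = 0.252), beside a median of -0.18 over all transcripts tested. After quantile normalization the change was -0.76 (adjusted p = 0.0226) and after median centring -0.12 (adjusted p = 0.657), so whether it fell depends on the scaling. The related activator Neurod4 was above Neurod1 in every library but P5 mid-day. It stood at 195 and 201 FPKM at P40, 111 to 139 FPKM at P5 and P20, and 200.3 and 213 FPKM at E21.

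Id2, on chromosome 6 (chr6:42781475-42783307, rn4), showed the largest change among the members. It stood at 33.9 FPKM at mid-night and 77.9 FPKM at mid-day at E21, 15.0 and 12.0 FPKM at P5, 8.34 and 7.17 FPKM at P20, and 11.1 and 13.7 FPKM at P40. Both E21 libraries lay above the 6 later ones. Id2 fell by 1.98 ± 0.33 (SE) for P40 against E21 (limma, adjusted p = 0.00279), which put it at percentile 2.78 of all transcripts tested. Most of this lay in the step around birth, where Id2 fell by 1.87 ± 0.33 for P5 against E21 (adjusted p = 0.0105). That step did not pass without the P5 mid-day library (-1.51, adjusted p = 0.107), and without E21 mid-day it was -1.24 (adjusted p = 0.0373).

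Id3, on chromosome 5 (chr5:154934137-154935707, rn4), was the most abundant Id gene in all 8 libraries. It stood at 58.2 FPKM at mid-night and 87.3 FPKM at mid-day at E21, 39.5 and 32.4 FPKM at P5, 26.8 and 35.0 FPKM at P20, and 31.9 and 24.7 FPKM at P40. Both E21 libraries were again above all later ones, which overlapped among themselves. Id3 fell by 1.31 ± 0.26 for P40 against E21 (limma, adjusted p = 0.00584), and without the P40 mid-day library the change was -1.02 (adjusted p = 0.0598). For P5 against E21 it fell by 0.97 ± 0.26 (adjusted p = 0.0447). This call was lost without any 1 library except E21 mid-night, with adjusted p from 0.0504 to 0.295 and the smallest change (-0.64) without E21 mid-day, and with no filter on FPKM (0.0865).

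Id1, on chromosome 3 (chr3:143086161-143087289, rn4), was lower at P20 than at E21 and P5. It stood at 24.8 FPKM at mid-night and 16.9 FPKM at mid-day at E21, 28.8 and 20.4 FPKM at P5, 9.43 and 8.44 FPKM at P20, and 18.9 and 5.68 FPKM at P40. Both P20 libraries were below all E21 and P5 libraries, while the P40 mid-night library was within their range. Id1 fell by 1.35 ± 0.31 for P20 against P5 (limma, adjusted p = 0.0436). The call did not hold without either library of P5 or of P20 (adjusted p from 0.0736 to 0.295), nor under 6 other settings given with the processing alternatives. For P40 against E21 its change was -0.90 ± 0.31 (adjusted p = 0.0503), and without the P40 mid-night library it was -1.49 (adjusted p = 0.00768). Without the P40 mid-day library it was -0.30 (adjusted p = 0.426).

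Id4, on chromosome 17 (chr17:22525291-22527861, rn4), had its highest levels at P40. It stood at 7.07 FPKM at mid-night and 10.0 FPKM at mid-day at E21, 8.25 and 5.63 FPKM at P5, 8.50 and 11.0 FPKM at P20, and 11.6 and 11.5 FPKM at P40. Both P40 libraries were above the 6 others, by a small margin over the P20 mid-day library. The change for P40 against E21 was 0.41 (95% interval -0.15 to 0.98; limma, adjusted p = 0.205), which does not show that Id4 was unchanged.

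The order of levels was Neurod1, then Id3, then Id1 and Id2, then Id4, Hes1 and Hes5. Id1 exceeded Id2 in 5 of 8 libraries and Id2 exceeded Id1 in 3, so these neighbours had no fixed order. Id4 exceeded Id1 in 2 libraries and Id2 in 3. FPKM are per length, so the Id genes can be summed and set beside Neurod1. Their summed FPKM was 124 at mid-night and 192 at mid-day for E21, 91.5 and 70.4 for P5, 53.1 and 61.6 for P20, and 73.6 and 55.5 for P40. Divided by Neurod1 FPKM, the mid-night sums came to 0.930 (E21), 0.876 (P5), 0.579 (P20) and 0.701 (P40). The mid-day sums came to 1.37 (E21), 0.519 (P5), 0.590 (P20) and 0.485 (P40). Only at E21 mid-day did the Id genes together exceed Neurod1. Id3 made up 43.2% to 56.9% of the Id sum in all libraries. The share of Id2 ran from 11.6% at P20 mid-day to 40.6% at E21 mid-day, and that of Id4 from 5.22% at E21 mid-day to 20.7% at P40 mid-day.

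**Figure D2:**
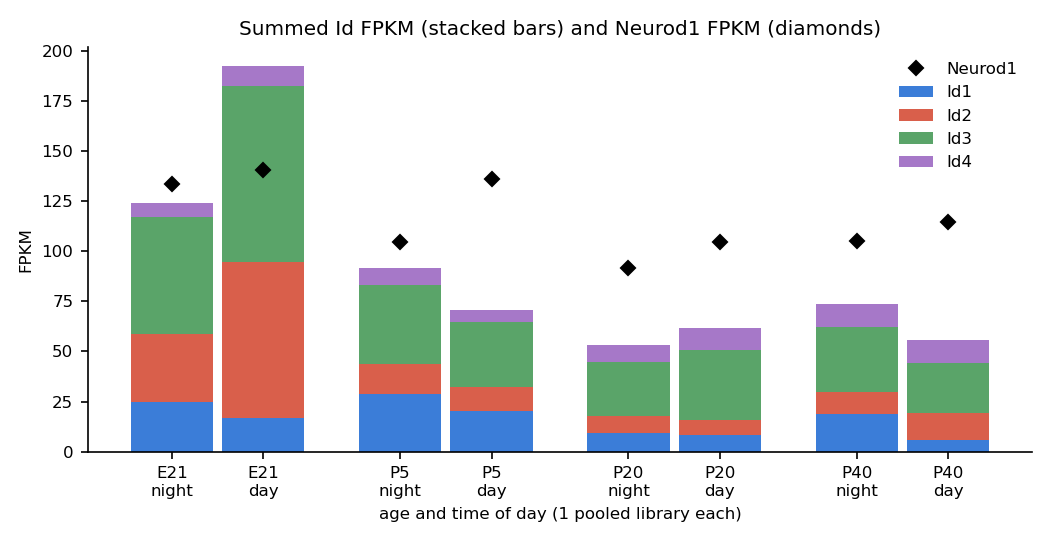
Stacked bars give the FPKM of Id1, Id2, Id3 and Id4 in each library (vertical axis, from 0), with mid-night left of mid-day at each age on the horizontal axis, and diamonds give Neurod1. The bar passes the diamond in the E21 mid-day library alone (192 against 140.4 FPKM) and lies under it in the other 7 libraries.

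Hes1, on chromosome 11 (chr11:72603481-72605673, rn4), was low throughout and highest at E21. It stood at 4.17 FPKM at mid-night and 4.75 FPKM at mid-day at E21, 3.21 and 2.03 FPKM at P5, 1.98 and 2.02 FPKM at P20, and 1.73 and 2.69 FPKM at P40. Both E21 libraries lay above the 6 later ones. Hes1 fell by 0.78 ± 0.24 for P40 against E21 (limma, adjusted p = 0.0322). The call was lost without E21 mid-day (adjusted p = 0.144), E21 mid-night (0.0862) or P40 mid-night (-0.51, 0.252), and under quantile normalization (-0.51, 0.0867), median centring (0.0646) and no filter (0.0705).

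Hes5, on chromosome 5 (chr5:171763868-171764636, rn4), was listed at 0.05001 FPKM at mid-night and 0.207 FPKM at mid-day at E21, at 0.0508 FPKM at P40 mid-day, and at 0 in the other 5 libraries. A listed value near 0 can be a failed estimate in this table: the endothelial gene Cldn5 is listed at 0 in all 8 libraries, and the cell-cycle gene Ccnb2 at 0.0333 FPKM or less at E21, where Top2a was at 29.3 and 39.1 FPKM. Whether Hes5 was low or poorly estimated cannot be told apart here. It failed the filter of 1 FPKM in 2 libraries and was not tested, and with no filter its change for P40 against E21 was -0.14 (limma, adjusted p = 0.140).

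Sequence upstream of 4 members is given here (RefSeq, build GRCr8) because Hes1 and Hes5 are Notch targets, and because E-boxes are the sites at which Neurod1 and the E proteins bind. The Notch effector Rbpj binds GTGGGAA, which stands in capitals, on either strand, in Hes1 (chr11:84213046-84213295, minus strand) and Hes5 (chr5:170804327-170804510, plus strand). E-boxes, CANNTG, stand in capitals in Neurod1 (chr3:84770455-84770704, minus strand) and Id2 (chr6:47470996-47471245, minus strand). All are written 5′ to 3′ and end before the annotated gene.
Hes1: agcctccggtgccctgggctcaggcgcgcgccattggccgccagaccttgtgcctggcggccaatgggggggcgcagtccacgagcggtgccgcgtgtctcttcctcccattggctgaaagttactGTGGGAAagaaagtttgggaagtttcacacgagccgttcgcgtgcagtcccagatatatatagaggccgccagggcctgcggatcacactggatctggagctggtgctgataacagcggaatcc
Hes5: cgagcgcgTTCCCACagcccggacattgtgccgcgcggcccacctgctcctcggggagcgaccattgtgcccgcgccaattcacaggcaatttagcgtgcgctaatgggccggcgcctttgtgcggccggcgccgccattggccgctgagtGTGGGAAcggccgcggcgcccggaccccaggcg
Neurod1: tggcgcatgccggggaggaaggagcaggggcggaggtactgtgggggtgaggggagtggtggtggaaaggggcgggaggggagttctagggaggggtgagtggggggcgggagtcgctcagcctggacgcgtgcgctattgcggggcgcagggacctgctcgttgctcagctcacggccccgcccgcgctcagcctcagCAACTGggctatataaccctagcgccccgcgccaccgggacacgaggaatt
Id2: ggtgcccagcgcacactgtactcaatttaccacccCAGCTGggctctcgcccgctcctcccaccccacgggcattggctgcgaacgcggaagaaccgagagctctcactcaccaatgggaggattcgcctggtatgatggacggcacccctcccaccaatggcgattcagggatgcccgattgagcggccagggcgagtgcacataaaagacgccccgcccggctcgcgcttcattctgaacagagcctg
Hes1 held 1 match to GTGGGAA and Hes5 held 2, and the other 5 members had 0 in the 250 bases before their tabulated start. On either strand 5.27% of 33469 rat windows of this length held this motif. CANNTG had 1 match each in Neurod1, Id1, Id2 and Hes5 and 0 in Id3, Id4 and Hes1, against 65.5% of windows with a match. The N-box CACNAG, which Hes proteins bind, had 4 matches in Hes1 and 1 in Neurod1, against 37.2% of windows. No window of the 7 members held the cyclic AMP response element TGACGTCA, found in 1.59% of windows. A match describes these letters and does not show a site.

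Over the members, 3 of 6 tested changed with age in the limma F test (Id1, Id2 and Id3), against 36.4% of the 9960 transcripts tested. For P40 against E21, 3 of 6 fell (Id2, Id3 and Hes1) and 0 rose, against 26.8% of all transcripts lower and 16.1% higher (42.9% in all). With each library centred on its median, which shifted this comparison by about the -0.18 of the median transcript, 2004 transcripts were lower and 2175 higher, against 2674 and 1602 without it. For P5 against E21, 2 of 6 fell, against 6.84% lower and 8.29% higher (15.1% in all). For P20 against P5, 1 of 6 fell, against 5.99% lower and 1.02% higher (7.02% in all), a split of 597 to 102 that was 313 to 219 after quantile normalization. At an unadjusted p under 0.05 the members numbered 4, 3 and 1 in these 3 comparisons, against 51.4%, 31.4% and 24.6% of all transcripts. Both E21 libraries lay above the 6 later ones in 3 of the 6 members (Id2, Id3 and Hes1) and below them in 0, against 27.9% and 17.9% of all transcripts. Between P40 and P20 0 of 6 passed in limma and 0 had an unadjusted p under 0.05, against 0.0% and 6.72% of all transcripts. The median change of the 6 members was -0.84 for P40 against E21, against -0.18 over all transcripts. All 7 members span 769 to 3294 bp of the genome. Among the 929 transcripts tested that span up to 3500 bp, a limit chosen after the values were seen, 27.2% fell and 14.7% rose for P40 against E21. The part of span in the changes of the members was not tested.

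**Figure D3:**
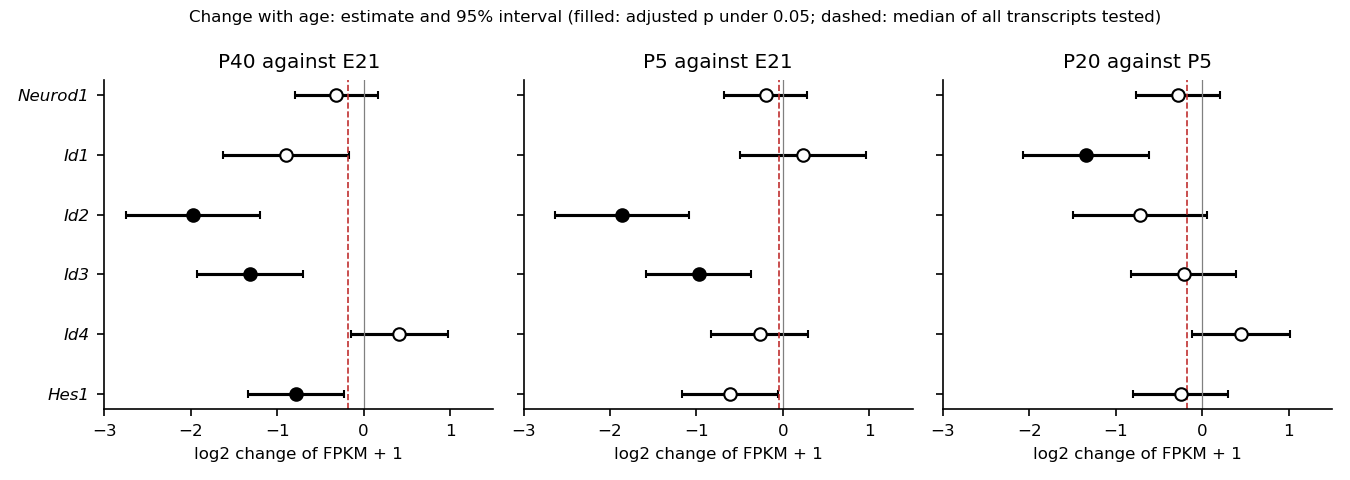
Log2 change of FPKM + 1 (horizontal axes) for the 6 tested genes (rows) in the comparisons P40 against E21, P5 against E21 and P20 against P5, with bars for the 95% interval. Filled points passed an adjusted p of 0.05, and the dashed line is the median of all transcripts tested (-0.18, -0.04 and -0.18). The filled points, all left of the line, are Id2, Id3 and Hes1 in the first panel, Id2 and Id3 in the middle panel and Id1 in the last. Some open points also lie left of the line.

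Mid-night against mid-day was compared to see whether the members follow the daily cycle of the gland. Over the 4 ages 0 of 6 members passed in limma, and 1 (Id1) had an unadjusted p under 0.05, against 0.0% and 10.2% of all transcripts. At P20 and P40 together 0 passed and 1 (Id1) had an unadjusted p under 0.05, against 4.39% and 20.1%. At E21 and P5 together 0 passed, with 0 at an unadjusted p under 0.05, against 0.0301% and 5.68%. For the difference between these older and younger night effects it was 0 and 0, against 0.753% and 13.0%.

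Id1 was higher at mid-night at all 4 ages. Its mid-night level was 1.47 times the mid-day level at E21, 1.41 times at P5, 1.12 times at P20 and 3.33 times at P40. The mean difference was 0.68 (limma, adjusted p = 0.474), and an exact sign-flip permutation test over the 4 ages gave p = 0.125 (two-sided), the smallest it allows. Among all transcripts tested, 6.96% were higher at mid-night at all 4 ages. At P40 Id1 was 1.57 higher on the log2 scale, at least 2-fold, as were 3.04% of all transcripts, and of those spanning up to 3500 bp, 5.71%. With the P20 and P40 night effects pooled, Id1 was 0.86 ± 0.30 higher at mid-night (adjusted p = 0.166). Without the P20 mid-day or the P20 mid-night library that effect is the 1 P40 mid-night library against the 1 P40 mid-day library, at 1.57, with its spread taken from the other ages (adjusted p = 0.0320 and 0.0312). Without either P40 library it is likewise P20 alone, at 0.14 (0.832 and 0.831).

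Neurod1 was lower at mid-night at all 4 ages, by small amounts, between 0.770 and 0.949 times the mid-day level. Its mean difference was -0.19 (limma, adjusted p = 0.665; exact two-sided sign-flip p = 0.125), and 10.5% of all transcripts were lower at mid-night at all 4 ages. Id2 was 0.435 times as high at mid-night as at mid-day at E21, the other night difference of at least 2-fold on the log2(FPKM + 1) scale among the 6 members tested, with no replicate to test it. Such a drop at E21 was seen in 1.24% of all transcripts, in 5.06% of those spanning up to 3500 bp and in 0.853% of longer ones, and the part of span in the Id2 value was not tested. In the other direction and at the other ages no tested member but Id1 at P40 passed 2-fold. The shares of all transcripts there were 0.783% higher at E21, 1.55% higher and 0.301% lower at P5, 2.44% higher and 2.72% lower at P20, and 1.34% lower at P40. Id2, Id3 and Id4 were each higher at mid-night at 2 ages and lower at 2, and Hes1 was higher at 1 age and lower at 3.

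**Figure D4:**
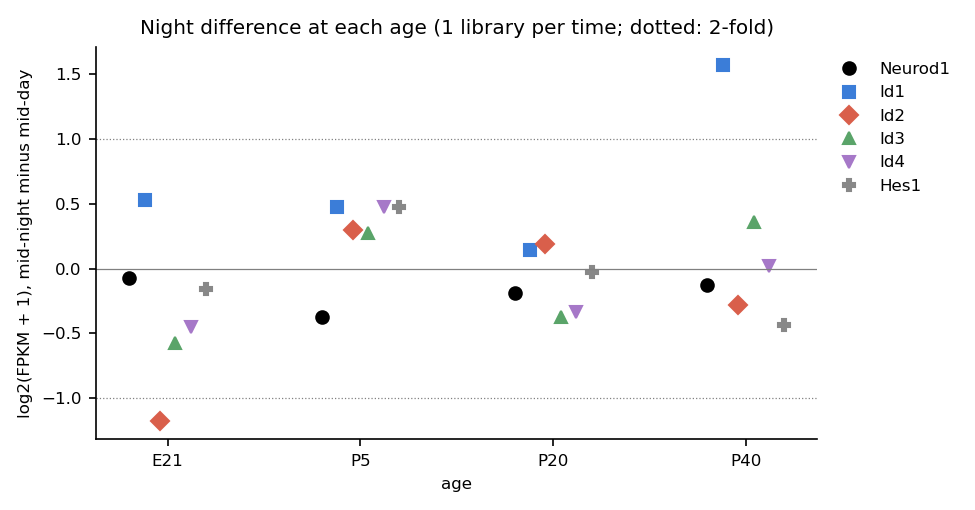
Difference of log2(FPKM + 1), mid-night minus mid-day (vertical axis), for 6 genes at the 4 ages (horizontal axis), each from 1 library per time. Dotted lines mark 2-fold, passed by Id1 at P40 (1.57) and by Id2 at E21 (-1.18). Id1 is above 0 and Neurod1 below 0 at all 4 ages.

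The partners and relatives of the members were followed in lists chosen with earlier results of these data known. The E proteins, with which Neurod1 dimerizes and which Id proteins sequester, fell in 2 of 3 cases for P40 against E21 and rose in 0. Over all transcripts tested 26.8% were lower and 16.1% higher. Tcf3 was at 2.02 FPKM at mid-night and 3.18 FPKM at mid-day at P40, against 11.1 and 11.7 FPKM at E21. It fell by 1.80 ± 0.20 (limma, adjusted p = 0.000391). Tcf4 fell by 0.60 ± 0.19 (adjusted p = 0.0383), and Tcf12 changed by -0.47 (adjusted p = 0.0735). The Tcf4 call was lost after median centring (-0.40, adjusted p = 0.132), after quantile normalization (-0.53, 0.0578), with no filter (0.0513), without both P5 libraries (0.0539) and without E21 mid-day, either P5 library or either P40 library (adjusted p from 0.0541 to 0.258). The summed FPKM of the 3 was 28.9 and 32.4 at P40, against 48.6 and 56.3 at E21. The list median was -0.60.

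The activator list held 18 other tissue-specific factors, not all of them activators. Among them Insm1, which was not found, is not a helix-loop-helix protein. Of the 18, 16 were found, 11 stayed under 1 FPKM in all libraries and 4 were tested. Of these 4, Neurog1, Nhlh1 and Bhlhe22 passed the filter only through their E21 levels, so that their lower levels at P40 come with the filter, and no count or median of the list is read. Bhlhe22, a factor of neurons, was at 0.316 FPKM at mid-night and 0.101 FPKM at mid-day at P40, against 5.38 and 5.64 FPKM at E21. Neurod4 changed by -0.06 (limma, adjusted p = 0.843), though it fell by 0.80 ± 0.22 for P5 against E21 (adjusted p = 0.0478), a call lost without any 1 library (adjusted p from 0.0545 to 0.233).

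The list of other Hes and Hey genes, which also held Bhlhe40 from outside these families, moved both ways. Of 5 tested, 2 rose, Bhlhe40 being 1 of them, and 1 fell for P40 against E21. Over all transcripts 16.1% were higher and 26.8% lower. Hes6, which in mouse counters Hes1, was at 4.81 FPKM at mid-night and 3.94 FPKM at mid-day at P40, against 9.33 and 12.1 FPKM at E21, and fell by 1.12 ± 0.19 (limma, adjusted p = 0.00315). Bhlhe40, a repressor tied to the circadian clock, rose by 1.48 ± 0.34 (adjusted p = 0.0106). It was at 16.1 FPKM at P40 mid-night, against 5.71 FPKM at P40 mid-day, and its call was lost without P40 mid-night (0.81, adjusted p = 0.0588) or E21 mid-night (1.21, adjusted p = 0.0635). Of the 5 Groucho and Tle corepressors, 2 fell and 1 rose, beside the same shares over all transcripts. Tle3 changed by -1.24 ± 0.21 (adjusted p = 0.00286), Tle2 by -0.61 (adjusted p = 0.0289) and Tle4 by 0.58 ± 0.17 (adjusted p = 0.0269). The Tle4 and Tle2 calls were lost without any 1 library of E21 or P40 (adjusted p from 0.0796 to 0.206 for Tle4 and from 0.0588 to 0.185 for Tle2). The Tle2 call was also lost after quantile normalization (0.0879), median centring (0.0940) and with age alone (0.0544). Tle1 was the 1 gene of these lists past the test for night at P20 and P40. It was at 2.42 FPKM at mid-night and 9.47 FPKM at mid-day at P20, and 3.46 and 9.36 FPKM at P40, a change of -1.42 ± 0.19 (adjusted p = 0.00704). The call was lost without either P20 library, where it rests on the P40 pair (-1.22, adjusted p = 0.0901 and 0.0903) and with no filter (0.0570).

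In the Notch pathway, upstream of Hes1 and Hes5, 12 of 19 genes tested fell for P40 against E21 and 0 rose, with a median of -0.85 beside -0.18 over all transcripts. The ligands Dll1 and Dll3 and the Notch-modifying enzyme gene Lfng passed the filter only through their E21 levels. Of the other 16 genes, a split made after the values were seen, 10 fell, with a median of -0.76, against 25.4% lower and a median of -0.17 over the 9440 transcripts that did not enter through E21 or P40 alone. These 10 included the ligand Jag1, the receptors Notch1, Notch2 and Notch3 and the nuclear effector Rbpj. Notch1 was at 1.95 FPKM at mid-night and 2.32 FPKM at mid-day at P40, against 7.51 and 6.39 FPKM at E21, and changed by -1.34 ± 0.19 (limma, adjusted p = 0.00116). Notch3 changed by -1.31 ± 0.27 (adjusted p = 0.00638) and Numbl, which with Numb restrains Notch, by -2.06 ± 0.32 (adjusted p = 0.00189). Numb itself changed by -0.01. The count of 12 was smaller without any 1 library of E21 or P40. Without either E21 library, Dll1 and Dll3 no longer reached the filter, so that count is over fewer genes. Notch3 did not pass without P40 mid-night (-1.06).

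Bone morphogenetic proteins (BMPs) act through Smad proteins and are known inducers of Id genes. Of 17 BMP pathway genes tested, 13 fell and 1 rose for P40 against E21, with a median of -0.79. Bmp5, the antagonist Nog, Smad6 and Smad9 passed the filter only through their E21 levels. Of the other 13 genes 9 fell and 1 rose, with a median of -0.76, against 25.4% lower and 16.2% higher over all transcripts taken the same way. The ligand Bmp4 was at 4.78 FPKM at mid-night and 4.11 FPKM at mid-day at P40, against 38.8 and 50.8 FPKM at E21. It changed by -3.06 ± 0.21 for P40 against E21 (limma, adjusted p = 6.0e-05), by -1.39 for P5 against E21 (adjusted p = 0.00583) and by -1.37 for P20 against P5 (adjusted p = 0.0122). The P5 against E21 call was lost without P5 mid-day (-1.44, adjusted p = 0.0503). The ligand Bmp7 changed by -1.79 ± 0.20 (adjusted p = 0.000448), and Bmp6 rose by 1.03 ± 0.25 (adjusted p = 0.0120). Smad1, Smad4, Smad5 and Smad7 fell, by 0.66 to 0.79. The count of 13 was 7 after quantile normalization, and it was also smaller without any 1 library of E21 or P40. Without either E21 library, Bmp5, Nog and Smad9 no longer reached the filter, so that count is over fewer genes. The Bmp6 call was lost without E21 mid-day (0.81), P40 mid-day (1.02) or P40 mid-night (1.05). The type 1 receptor Acvr1 rose by 1.32 ± 0.19 for P5 against E21 (adjusted p = 0.00490), at 61.9 and 63.7 FPKM at P5, against 23.6 and 25.6 FPKM at E21.

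**Figure D5:**
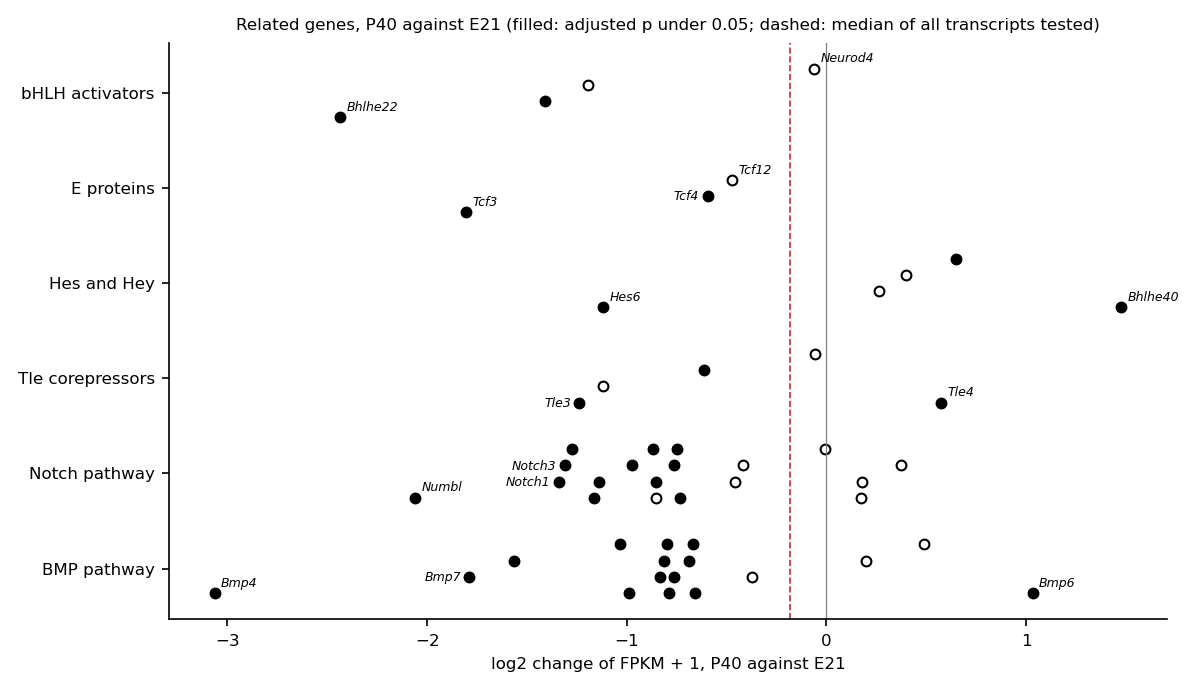
Log2 change of FPKM + 1 for P40 against E21 (horizontal axis) of each related gene tested, in rows by list. Filled points passed an adjusted p of 0.05 and the dashed line is the median of all transcripts (-0.18). In the Notch row 12 of 19 points are filled and left of 0, and in the BMP row 13 of 17, with Bmp6 filled on the right. Of these, 2 in the Notch row, 4 in the BMP row and the 2 filled points of the activator row are genes that passed the filter only through E21.

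Markers of dividing cells, of progenitors and of some other cell types mostly fell, as did Id2, Id3 and Hes1. Those of further cell types rose, moved both ways or mostly did not pass. The counts here stand beside 26.8% lower and 16.1% higher over all transcripts for P40 against E21. Of 16 cell-cycle genes tested 14 fell for P40 against E21, and the list summed to 37.5 FPKM at mid-night and 27.3 FPKM at mid-day at P40, against 196 and 254 FPKM at E21. Neural progenitor genes fell in 6 of 7 cases (1 of them, Fabp7, passed the filter only through E21) and rose in 1, summing to 107 and 106 FPKM at P40, against 241 and 268 FPKM at E21. Endothelial genes fell in 7 of 8, at 19.6 and 23.9 FPKM at P40, against 75.6 and 55.9 FPKM at E21. Fibroblast and matrix genes fell in 7 of 8, at 122 and 159 FPKM at P40, against 1257 and 889 FPKM at E21. Their part in the change of the members was not tested. Smooth muscle and pericyte genes fell in 3 of 5 cases (1, Cspg4, through the filter at E21) and erythroid genes in 3 of 5, with 0 higher. Astrocyte and glial genes rose in 4 of 7 and fell in 2, microglial genes rose in 4 of 8 and fell in 1, neuronal genes rose in 3 of 4 and fell in 1 (Tac1, through the filter at E21), and choroid plexus genes fell in 3 of 10. Without 1 library of E21 or P40 the smooth muscle count ran from 0 to 2, the erythroid count was 1 and the count of microglial genes that rose ran from 1 to 2. Of 3 oligodendrocyte and Schwann cell genes tested 0 passed. Choroid plexus genes summed to 17829 FPKM at P5 mid-night and 3029 FPKM at P5 mid-day, against 498 to 1379 FPKM in the 6 other libraries. Their part in the P5 values was not tested.

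Across the 8 libraries, the members fell into patterns that are described by Pearson's r of log2(FPKM + 1), where the libraries share their ages. Id2, Id3 and Hes1 followed each other, with r from 0.84 to 0.91 (n = 8 libraries). Id4 ran against or apart from the other 5, with r from -0.55 to -0.08. Among 2618 transcripts of at least 5 FPKM on average that spanned at least 2-fold, the most like Id2 were the replication gene Mcm4 (0.99), Gnb2l1 (0.98) and Phf14 (0.98). The most like Id3 were Hmgn2 (0.99), the ribosomal protein gene Rplp0 (0.99) and Eef1d (0.98), and the most like Hes1 were Zfp260 (0.98), Arl13b (0.97) and Usp1 (0.97). For Id4 they were the proteasome gene Psmd10 (0.98), Stip1 (0.84) and Nln (0.83). Id1 was most like Tor1aip2 (0.93), Med29 (0.92) and Odc1 (0.91), the enzyme gene that begins polyamine synthesis. Neurod1, with its narrow range, was most like RGD1566320 (0.94), Exoc7 (0.94) and Tbca (0.94).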

How the data were processed

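Pooled pineal glands were profiled by sequencing of polyadenylated RNA in 8 libraries. Per the submitters' processing notes, the tools were Cufflinks 1.2.0 and TopHat 1.3.1 and the build was rn4. The authors deposited FPKM, 1 value for each RefSeq transcript in a library. Filters and scaling between libraries are not given in the sources used here, and no read totals were used, so no counting intervals are given. The per-library values were identical to the series table for all 8 libraries.

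From these, log2(FPKM + 1) was computed. The 9960 transcripts with at least 1 FPKM in 2 libraries entered limma (version 3.58.1, R 4.3.3) with an eBayes trend, and a two-sided p under 0.05 after Benjamini-Hochberg adjustment over all of them was a call. The age comparisons came from a fit with age and time of day (3 residual degrees of freedom). The night effects of older and younger ages came from a fit with 1 night term for each (2 residual degrees of freedom). The code of the fits was run on simulated independent noise, which has no library or pool effects and so does not test the design of single pools. A list is described by counts and median, with 1 transcript per gene (highest mean). Named from each list were at most 3 genes past the test with the largest change and at least 5 FPKM in a library. Quoted beyond this, after their values were seen, were single values of Dll1, Jag1, Notch2, Rbpj, Dll3, Lfng, Numb, the Smad genes, Tle2, Cldn5, Ccnb2, Top2a, the other genes named as passing the filter only through E21, Crx and Tph1. One gene of the activator list is not reported here and was left out of its counts. The members and lists were chosen with earlier results of these data known. Alternatives were pseudocounts of 0.1 and 5, other filters and scalings, robust eBayes, sums per symbol, no time term, and leaving out libraries.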

Additional observations from a re-analysis of the deposited data

How the results depend on the processing

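With each library left out in turn, the number of members past the test ranged from 2 to 3 for the age F test, 2 to 4 for P40 against E21, 0 to 2 for P5 against E21, 0 to 1 for P20 against P5 and 0 to 1 for night at P20 and P40. It stayed at 0 for P40 against P20, for the other night comparisons and for the difference of night effects. For P5 against E21 it was 1 with no filter. For P20 against P5 it was 0 at a pseudocount of 5, with no filter, with a filter at 5 FPKM, after quantile normalization, after median centring and with age alone (Id1, adjusted p = 0.0543, 0.102, 0.0550, 0.0629, 0.0978 and 0.127). The cause was not tested.

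Id2 passed for P40 against E21 and in the age F test under all 10 other settings and without any 1 library. Id1 passed the age F test under 6 of 10 settings, and for P40 against E21 under 2 of 10 (quantile normalization and sums per symbol, adjusted p = 0.0369 and 0.0453). Without E21 mid-day, Id3 did not pass the age F test (adjusted p = 0.129). Hes1 passed it without both P5 libraries (0.0258) and in 2 of the 8 fits with 1 library left out. Id1 passed it in 5 of those 8 fits. Among the age comparisons reported, directions turned only for changes that did not pass. For P40 against P20, over the other settings and with libraries left out, Id1 ranged from -0.38 to 0.81. In the same comparison Id3 ranged from -0.41 to 0.17 and Hes1 from -0.18 to 0.35. Hes1 for P20 against P5 was 0.037 after quantile normalization. With 1 library left out, Hes1 for P20 against P5 ranged from -0.59 to 0.088 (without P5 mid-night), Id3 for P20 against P5 from -0.46 to 0.021 (without P5 mid-night), and Id4 for P5 against E21 from -0.64 to 0.099 (without P5 mid-day). Over all transcripts, P20 against P5 had 699 calls, against 373 with no filter and 397 at a pseudocount of 5, and night at P20 and P40 had 437, against 105 with no filter. The calls for P20 against P5 were fewer still without any 1 library of P5 or of P20, which leaves only 1 library at that age. With single libraries a replicate number cannot form a block, so libraries were not paired by replicate. The night comparisons set the 2 libraries of an age against each other through the age term, and the sign-flip test used the differences within each age. Hes5, listed at or near 0, is limited most.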
